A study of Mus musculus with 61 samples.

Results

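The dorsal horizontal fractions are the slices from the top of the mouse brain. They were chosen by their labels as the fractions H1, Ho1 and Ho2, and they are 3 of 13 horizontal arrays and of 61 arrays in all. The study cut 6 frozen brains of 8-week-old male C57BL/6J mice, each from end to end into fractions 1 mm wide, every fraction holding 200 sections of 5 µm, and hybridised the RNA of each fraction to 1 single-colour whole-genome array. The H series came from 1 mouse and was cut from dorsal to ventral into 6 fractions. The Ho series came from another mouse, was cut in a slightly oblique horizontal plane and gave 7 fractions. H1, Ho1 and Ho2 were set against the other 10 horizontal fractions (H2 to H6 and Ho3 to Ho7), with the series as a block. No mouse was treated, and all carried the same genotype. The 3 dorsal arrays stand for 2 mice, and fractions of 1 mouse are not separate animals, so the p-values below measure the spread between fractions rather than between animals.

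The top of the mouse brain is mostly isocortex, whose excitatory neurons lie in layers under the meninges. White matter, the lateral ventricles with their choroid plexus, the hippocampus, the striatum and the thalamus follow below it. The pineal gland, which makes melatonin at night from serotonin, sits on the midline between cortex and cerebellum, and the upper folds of the cerebellum also reach far dorsally. Immediate early genes are transcribed within minutes of neuronal activity and are prominent in cortical excitatory neurons.

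The arrays were similar in quality. Between 66.3% and 68.8% of the probes were well above background on the dorsal arrays, and between 68.0% and 72.9% on the other horizontal arrays. All 13 were scanned on 1 day, on 4 slides, with H1 and H2 on 1 slide and Ho1 to Ho4 on another. The 75th percentile of the intensities was 737 units on Ho1, the lowest of the 13, against 951 to 1205 on the other 10 fractions. Levels are given below as log2 intensity minus the 75th percentile of the same array, so that 0 is the level of a fairly bright probe and levels compare fractions for 1 probe, never 1 gene with another. In such bulk tissue, fewer cells of a type and less RNA per cell cannot be told apart.

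Ho1 stood apart from H1 and Ho2 for several gene groups, and results are therefore also given without it. Firstly, it held little cerebellar RNA. Gabra6, a GABA receptor subunit of cerebellar granule cells, was at -2.13 in Ho1, at 0.72 in H1 and at 1.94 in Ho2, and Cbln1, a granule cell synapse organiser, was at 1.22, 3.86 and 5.13 in the same order. All 8 granule cell genes and all 8 Purkinje cell genes tested were lower in Ho1 than in H1 and than in Ho2. Secondly, Ho1 held low levels of genes of the base of the brain. Pmch, a hypothalamic neuropeptide precursor, was at 5.61% of its highest intensity in that mouse in Ho1 but at 0.52% in Ho2. Slc6a3, the dopamine transporter, was at 4.3% against 0.87%, and Hoxb5, a hindbrain gene, at 4.14% against 0.52%. Hoxb5 was not well above background on Ho2, so its 0.52% is a background value. Of 33 hypothalamic, monoamine, Hox and olfactory bulb genes that peaked in Ho5 to Ho7, 21 were higher in Ho1 than in both Ho2 and Ho3. In 7 of the 33, Ho1 exceeded both by more than 1 log2 unit. In the other mouse, H1 was compared with H2 alone, and was above it for 18 and by that much for 2. The rule thus differed between the mice, and the genes were picked by their peak in the Ho series. Both comparisons were chosen after the values were seen. Among the 21, Nkx2-1, Slc6a2, Hoxa2, Hoxa5, Hoxb4 and Hoxd4 were not well above background on Ho1, Ho2 or Ho3. The intensity against which levels are given was lowest on Ho1, so an equal background signal reads higher there. These genes therefore cannot show a rise in Ho1. The 7 genes past 1 log2 unit were all well above background on Ho1. What put the other transcripts into Ho1 was not tested.

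**Figure D1:**
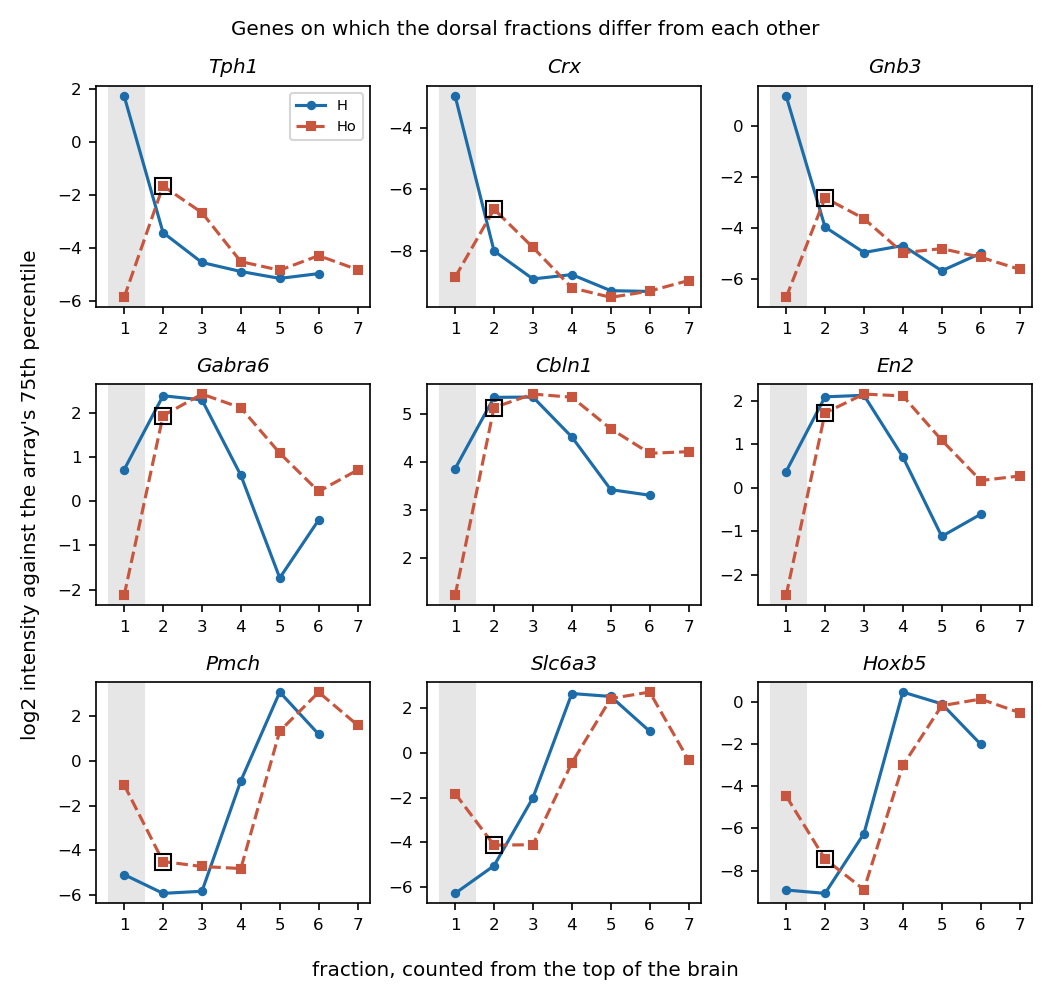
Levels (log2 intensity against the 75th percentile of the array) of 9 genes by fraction number, counted from the top, in the H series (circles) and the Ho series (squares). The grey band marks fraction 1 of each series and the open square marks Ho2. The pineal genes in the top row are highest in H1, the cerebellar genes in the middle row are lowest in Ho1, and the ventral genes in the bottom row are higher in Ho1 than in Ho2.

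Of 32188 probes tested with limma, 2466 were higher (7.66%) and 3156 were lower (9.8%) in the dorsal fractions at an adjusted p under 0.05. Changes past 2-fold were less even, with 290 probes higher and 1340 lower. With 1 probe per gene, 1247 of 14441 genes were higher (8.64%) and 1401 were lower (9.7%), and the median difference over all genes was 0.0029. Counts of list members below stand beside these shares of all genes. The lists were chosen with earlier results of these data known, so these counts are no independent test. Scaling each array to its median moved the median difference of all probes from -0.02 to 0.11 log2 units and the higher share of the calls from 43.9% to 74.8%, so changes are best read relative to that shift. A stricter view asks for no overlap between the groups: 851 genes (5.89%) were above all 10 other fractions on all 3 dorsal arrays, and 775 (5.37%) were below them.

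The number of calls changed with the arrays and the model. Without H1, only the Ho mouse informs the contrast, and 4 probes were higher and 6 lower. Without Ho1, 566 were higher and 1031 lower, and a fixed term for the slide left 2 and 7. No gene of the lists below was called without H1 or with this term. Leaving out any of the 10 other fractions gave 1637 to 2984 higher and 2203 to 3730 lower probes, the lowest count of higher probes being that without Ho6. The values of each fraction are therefore given first.

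Most of the genes listed for pallial excitatory neurons and for the upper cortical layers were higher in the dorsal fractions. Of 12 genes of pallial excitatory neurons, 8 were higher and 0 lower, with a median difference of 0.94. Of 11 genes of the upper cortical layers, 8 were higher and 0 lower, with a median of 0.95. Both medians stand beside 0.0029 over all genes. Without Ho1, 2 of the 12 pallial genes were called and their median was 0.92. Compared within slides, the pallial list was higher in H1 than in H2 by a median of 0.45, and in Ho1 and Ho2 than in Ho3 and Ho4 by 0.67. Of the 12 pallial genes, 5 were above all other fractions on all 3 dorsal arrays, as were 7 of the 11 upper layer genes.

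Emx1, which specifies cortical excitatory neurons, was at 0.96 in H1, 1.18 in Ho1 and 0.65 in Ho2 (the order kept below), and ran from -0.75 through a median of -0.41 to 0.30 in the other fractions. The groups did not overlap, and the difference was 1.27 ± 0.22 (SE; limma, adjusted p = 0.00735). Lhx2, a cortical selector gene, was 2.19-fold higher (adjusted p = 0.00885), also without overlap. Mef2c, a factor of activity-dependent synapse development, was 2.43-fold higher (adjusted p = 0.0112), but H2 at 3.59 lay above Ho2 at 3.37.

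Among upper layer genes, Lamp5, a lysosome-associated membrane protein of superficial neurons, was at 4.08, 4.15 and 3.41. It ran from 2.18 through 2.54 to 3.25 in the other fractions, where H2 was nearest to the dorsal arrays, and the difference was 1.35 ± 0.21 (SE; limma, adjusted p = 0.00698). Cux2, a homeobox factor of the upper layers, was at 0.58, 1.26 and -0.11 against at most -0.19, a 2.45-fold difference (adjusted p = 0.00785). Stard8, a lipid transfer domain protein, was 2.51-fold higher and Rasgrf2, a Ras exchange factor of layer 2/3 neurons, 2.02-fold higher. Without Ho1, 5 of the 11 upper layer genes were called, and the median was 0.81. Compared on the same slide, the list was higher in H1 than in H2 by a median of 0.77, and higher in Ho1 and Ho2 than in Ho3 and Ho4 by 0.94.

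Genes of the deep cortical layers did not move as a group. Of 15 tested, 2 were higher and 4 lower, beside 8.64% higher and 9.7% lower over all genes. The median was -0.32, but -0.02 without Ho1. Cplx3, a complexin of subplate neurons, was 2.15-fold higher, with another probe at a log2 difference of 0.34. Rbp4, a retinol carrier used as a layer 5 marker, was 1.43-fold higher. Bcl11b, a factor of layer 5 projection neurons that the striatum also expresses, was at 1.90, 1.27 and 2.48 against 2.54 to 3.35 in the other fractions. Foxp2, expressed in layer 6 and in striatum and thalamus, was at -0.97, -2.18 and -0.33, and Ho2 overlapped the others, whose lowest value was -0.37. Nxph4, a neurexophilin of layer 6b, was 2.78-fold lower (adjusted p = 0.00885), and Syt6, a synaptotagmin of layer 6, was 1.85-fold lower. Without Ho1, 0 of these genes were called higher and 1 lower. Ho1 was below H1 for 11 of the 15 deep layer genes, whereas it was above H1 for 10 of the 11 upper layer genes.

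All 14 immediate early genes tested were higher in the dorsal fractions, and 10 of them without overlap. Their median difference was 1.18, the range from 0.76 (Nptx2) to 1.88 (Egr2). Egr2, a zinc finger factor, was at 3.94, 3.83 and 2.41 and ran from 1.00 through 1.55 to 2.52 elsewhere. H1 and Ho1 lay far above every other fraction, and Ho2 lay just under H2. The difference was 1.88 ± 0.35 (SE; limma, adjusted p = 0.00812).

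Arc, which regulates AMPA receptor endocytosis at active synapses, was at 6.74, 7.03 and 6.28 and at 4.07 to 6.11 elsewhere, a 3.44-fold difference (adjusted p = 0.0119). Junb, an AP-1 subunit, was at 6.13, 6.11 and 5.35 against at most 5.23, and Fosb, another subunit, was at -0.65, -0.67 and -1.34 against at most -1.58. Both had an adjusted p of 0.00698. Fos itself was at 1.66, 1.16 and 0.88, and the highest other value was 0.89 in H2. Npas4, a neuronal factor induced by calcium influx, was 2.28-fold higher (adjusted p = 0.0347), and Bdnf, the neurotrophin, was 1.78-fold higher (adjusted p = 0.0289), with an overlap. For all 14 genes H1 was above H2 and Ho1 above Ho2, so the levels were highest in the uppermost fraction of each mouse. Without Ho1, 6 of the 14 were called, and the median was 1.10.

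Of 16 postsynaptic and plasticity genes, 6 were higher and 0 lower, with a median of 0.42. Over all genes, 8.64% were higher and 9.7% lower. Homer1, a postsynaptic scaffold, was at 1.28, 1.28 and 1.20 against 0.17 to 0.95, a 1.72-fold difference (adjusted p = 0.00853). Itpka, an inositol trisphosphate kinase of dendritic spines, was 2.00-fold higher, and Nrgn, a calmodulin-binding protein of dendrites, was 1.96-fold higher. The median difference between H1 and H2 was -0.01 for this list, and without Ho1 1 of the 16 genes was called. Htt, the huntingtin gene, which the study examined, was at 1.03, 0.99 and 1.13 against 0.67 to 1.09 (adjusted p = 0.402).

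**Figure D2:**
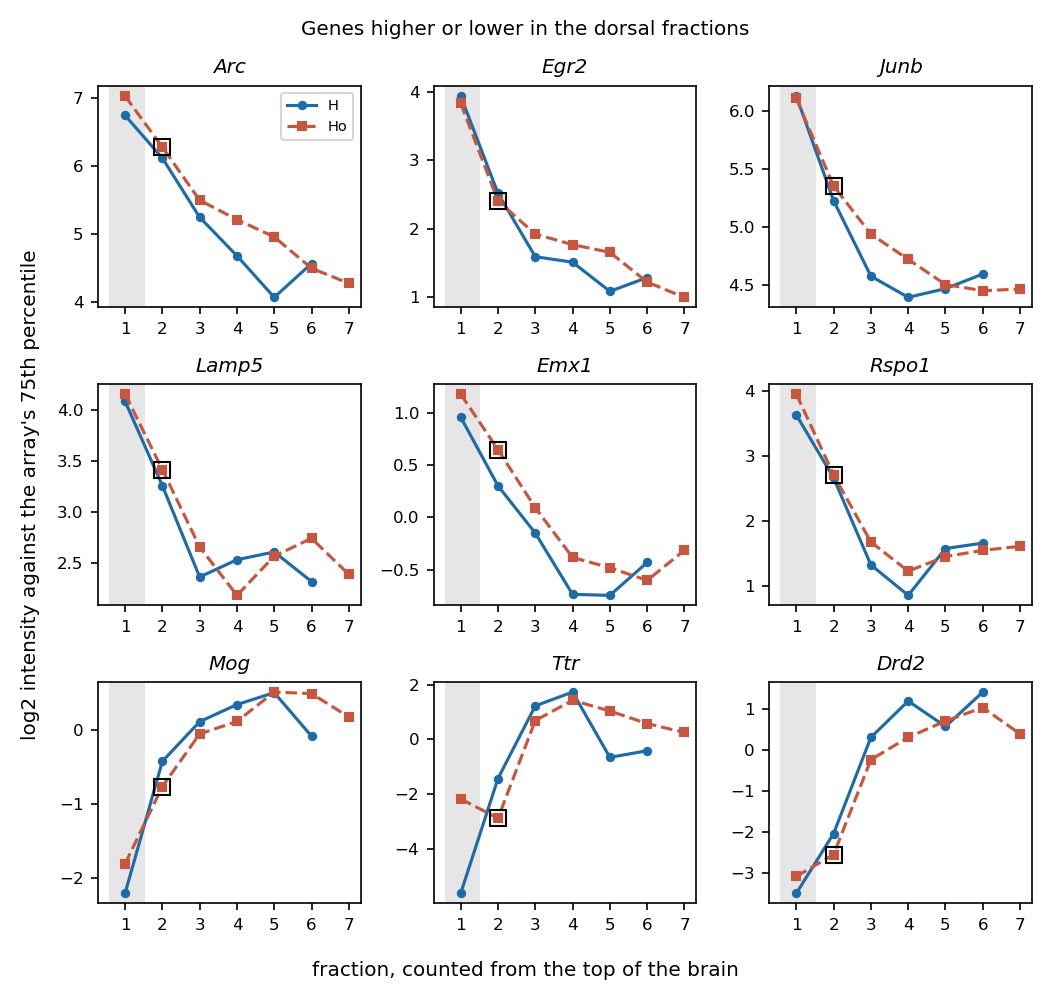
Levels (log2 intensity against the 75th percentile of the array) of 9 genes by fraction number, counted from the top, in the H series (circles) and the Ho series (squares); the grey band marks fraction 1 and the open square Ho2. Arc, Egr2, Junb, Lamp5, Emx1 and Rspo1 are highest in fraction 1 of both mice, and Mog, Ttr and Drd2 are lower in the 3 dorsal fractions than in all others.

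The promoter windows of genes that moved together were read for known motifs in the RefSeq windows (GRCm38.p6; 250 bases before to 50 after the start). Of the 14 immediate early genes, 9 were read, as the others had no usable window or lay on a chromosome left out for the list. That chromosome was not left out of the 27018 windows. Among the 9 genes, 1 held the cyclic AMP response element TGACGTCA, found in 1.88% of 27018 windows. A CArG box was held by 0 of the 9, and by 1.57% of the windows. These counts do not cover the genes that were not read. Both strands were searched, and these motifs do not overlap each other. The element is shown in capitals in Dusp1, a MAP kinase phosphatase that was 1.86-fold higher, at chr17:26508423-26508722 on the minus strand.
Dusp1: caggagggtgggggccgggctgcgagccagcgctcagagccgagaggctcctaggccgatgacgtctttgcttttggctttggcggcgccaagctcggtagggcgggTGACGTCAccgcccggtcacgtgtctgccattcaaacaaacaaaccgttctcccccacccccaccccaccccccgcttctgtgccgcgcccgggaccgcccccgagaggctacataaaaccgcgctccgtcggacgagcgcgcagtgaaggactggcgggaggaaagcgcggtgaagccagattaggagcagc

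Genes of GABA interneurons did not move together, with 4 of 12 higher, 1 lower and a median of 0.09. Over all genes, 8.64% were higher and 9.7% lower. Vip, a neuropeptide of superficial interneurons, was at 0.91, 1.58 and 0.12, and the other fractions ran from -1.25 to 0.17. Ho2 thus lay just under H2, and the difference was 2.91-fold (adjusted p = 0.0101). Cck, a peptide of interneurons and of pyramidal cells, was 1.96-fold higher, and Npy was 1.68-fold higher. Calb2, the calretinin gene, which cerebellar granule cells express strongly, was at 0.69, -0.17 and 2.21 and 3.16-fold lower (adjusted p = 0.0134). Without Ho1, 0 of the 12 were called by limma, while the median was 0.19.

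The 12 higher genes with the largest differences among those called without overlap and well above background on all 3 dorsal arrays are given next, except Sag, which stands with the pineal genes. Rspo1, a secreted amplifier of Wnt signalling that is also in the upper layer list, was at 3.64, 3.96 and 2.71 and ran from 0.85 through 1.56 to 2.66 elsewhere. The nearest other fraction was again H2, and the difference was 1.90 ± 0.32 (SE; limma, adjusted p = 0.00732). Ntn5, a netrin-like secreted protein, was at -0.55, -0.20 and -1.52 against at most -1.65, a 5.54-fold difference (adjusted p = 0.00832). Slc23a3, a member of the ascorbate transporter family, was at 0.74, 1.58 and -0.78 and was 6.28-fold higher (adjusted p = 0.011), a log2 difference of 2.65 that was 3.31 without Ho2. Its nearest other fraction was H2 at -0.86, so Ho2 stood only just above the others.

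A530021J07Rik, a transcript of unknown function, was at -6.50, -6.22 and -6.78 and was not well above background on any of the 10 other arrays. It was at least 4.47-fold higher in the dorsal fractions (adjusted p = 1.54e-05). It entered the test only through the dorsal arrays, so this p sets them against values at background and is no measure of strength. Glp2r, the glucagon-like peptide 2 receptor, was at -2.21, -2.51 and -2.66 and at most -3.19 elsewhere, a 4.6-fold difference, while its other 2 probes differed by 0.14 and 0.37 on the log2 scale. Adcy10, the soluble adenylyl cyclase, was higher by 2.28 on the log2 scale but was well above background on only 1 of the 10 other arrays, so the size of its difference is uncertain.

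Mslnl, a mesothelin-like gene, was 4.63-fold higher, and Golt1a, a Golgi transport protein, 4.32-fold higher. Cd6, a lymphocyte surface receptor, was at 0.89, 2.29 and 1.14 against at most 0.46, a 4.03-fold difference (adjusted p = 0.0141). Apol7a, an apolipoprotein L family member, was 3.79-fold higher, and Ocm, the calcium-binding protein oncomodulin, 3.97-fold higher with an adjusted p of 0.0475. Without Ho1, Slc23a3, Mslnl, Golt1a, Cd6 and Ocm had adjusted p values from 0.057 to 0.195 by limma. The other 7 of the 12 genes kept their call. Without H1, A530021J07Rik alone stayed called, and the rest had adjusted p values from 0.0717 to 0.16 by limma. Kiss1, a peptide precursor known from the hypothalamus, was the only hypothalamic list gene to rise, at -0.98, 0.13 and -1.78 against a median of -2.80 elsewhere, without overlap (3.57-fold, adjusted p = 0.0101, and 0.0527 without Ho1).

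Myelin genes were lower throughout. All 11 tested were called, 8 without overlap, with a median difference of -1.42 and a range from -1.82 to -0.98. They are made by oligodendrocytes and are dense in white matter. Mog, a surface protein of myelin, was at -2.21, -1.81 and -0.76 and ran from -0.42 through 0.15 to 0.52 elsewhere. The 3 dorsal arrays were the lowest of the 13, and the difference was -1.82 ± 0.25 (SE; limma, adjusted p = 0.00698). Mag, an adhesion protein of the inner sheath, was 3.03-fold lower, and Cldn11, the tight junction claudin of myelin, was 2.32-fold lower. Of the other 2 probes of Mbp that were tested, 1 had the opposite sign (0.90). Without Ho1, all 11 genes stayed called and the median was -1.28. Without H1, 0 were called and the median was -1.23, and with a term for the slide 0 and -1.12. Within slides, H1 was lower than H2 by a median of -1.41 and Ho1 and Ho2 lower than Ho3 and Ho4 by -1.06.

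Choroid plexus and ependymal genes were lower too. Of 10 choroid plexus genes, 9 were lower and 9 did not overlap (median -2.56), and without Ho1 8 were called. Ttr, the thyroid hormone carrier that choroid plexus secretes, was at -5.63, -2.17 and -2.88 and ran from -1.43 through 0.64 to 1.74 elsewhere, an 18.5-fold difference (adjusted p = 0.00698) that was -3.33 on the log2 scale without H1 and -4.21 with it. Kcne2, a potassium channel subunit of the same epithelium, was at -6.75, -2.05 and -3.58 and was lower by a difference of -4.67, or -3.40 without H1. F5, coagulation factor V, differed by -3.56, or -2.82 without H1. Both were well above background on 2 of the 3 dorsal arrays, not on H1, so these sizes are uncertain. Clic6, a chloride channel protein, was at -1.39, -1.58 and -1.24 against at least -0.09, and Folr1, a folate receptor, was 6.71-fold lower, with another probe at a log2 difference of -0.88. Of 6 ependymal genes, 5 were lower (median -1.40), among them Foxj1, the regulator of motile cilia, by 3.36-fold, and without Ho1 2 were called.

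Striatal genes were lower in 8 of 10 cases, with a median of -1.81 and 0 higher. Drd2, the dopamine D2 receptor, was at -3.49, -3.08 and -2.55 and at -2.04 to 1.41 elsewhere, a 10.9-fold difference (adjusted p = 0.00725), and its genomic neighbour Ankk1 differed by -3.70 on the log2 scale, or -2.90 without H1, and was well above background on 2 of the 3 dorsal arrays. Penk, the enkephalin precursor, was at 4.21, 4.16 and 4.07 and overlapped H2 at 4.04. H1 and H2 hardly differed for this list, with a median of -0.19, whereas the median of Ho1 and Ho2 against Ho3 and Ho4 was -1.35. Without Ho1, 1 of the 10 genes was called, with the list median at -1.78.

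The counts of this paragraph stand beside 9.7% lower over all genes. Of 10 thalamic genes 2 were lower, among them Slitrk6, which the study examined, at -3.99, -3.97 and -2.94 against -2.35 to 0.41 (7.96-fold, adjusted p = 0.00769). Of 15 hypothalamic genes 3 were lower. Foxb1, a mammillary body factor, was at -6.54, -6.32 and -5.83 against at least -4.09 (7.07-fold, adjusted p = 0.00594). Th, the rate-limiting enzyme of catecholamine synthesis, was at -4.88, -3.46 and -3.25 against -2.65 to 1.18 (14.2-fold, adjusted p = 0.0142). Of 9 genes of monoamine neurons 3 were lower (median -2.92), of 5 olfactory bulb genes 2 (median -2.51), and of 11 Hox genes 0 by limma, although their median was -2.63. Hoxa2, Hoxa4, Hoxa5, Hoxb4, Hoxd3 and Hoxd4 were not well above background on Ho1 or Ho2, so the size of the Hox median is uncertain. Without Ho1, 1 thalamic and 1 hypothalamic gene were called lower, and 0 of the monoamine and olfactory bulb genes. With a term for the slide, the medians were -0.14 for the hypothalamic, -0.90 for the monoamine, -1.45 for the olfactory bulb and -0.21 for the Hox list.

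Other genes with large drops were named by the same rule. Klk6, an oligodendrocyte protease, was at -4.32, -2.51 and -1.54 and 14.8-fold lower, a log2 difference of -3.89 that was -3.07 without H1. Slc6a5, the neuronal glycine transporter, was 9.84-fold lower (limma, adjusted p = 0.0308, and 0.125 without Ho1). Mab21l2, Nkx2-9, Six3 and Glra1 (developmental factors and a glycine receptor subunit) were not well above background on any dorsal array. They were at least 12.5-fold, 10.5-fold, 10.6-fold and 9.92-fold lower there, with adjusted p values of 0.00698, 0.00698, 0.00711 and 0.0155. They entered the test only through the other fractions, so these p-values set those against values at background. The fitted difference of Glra1 was -3.52 log2 units, or -2.91 without H1, so its bound also depends on H1.

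Beside 8.64% higher and 9.7% lower over all genes, hippocampal genes gave 1 higher and 2 lower of 12 (0 and 1 without Ho1), with Amigo2, an adhesion protein of CA2, 2.52-fold lower and Prox1, a dentate granule cell factor, 1.86-fold lower. Claustral and piriform genes gave 1 higher and 1 lower of 6, and 0 of either by limma without Ho1. Of the 3 isocortex genes tested that the study picked, 0 were called, and 1 (Tshz2) without Ho1 (adjusted p = 0.0248). Their median was 0.74, or 0.28 without H1. Astrocyte genes split, with 3 higher and 2 lower of 11, and without Ho1 the 2 lower ones were called. Slc1a2, a glutamate transporter, was 1.56-fold higher, and Agt, angiotensinogen, which is richer in astrocytes of deep brain regions, was at 2.05, 1.65 and 2.56 against a median of 3.87 elsewhere, without overlap (3.34-fold lower, adjusted p = 0.00732). The median of the astrocyte list was -0.07 and turned to 0.06 when arrays were scaled to their median. Of 5 skeletal muscle genes, Acta1 was 2.3-fold and Myh4 1.4-fold higher, while Ckm, Tnnt3 and Mylpf were not called, and without Ho1 1 of the 5 was called. None of the cerebellar, habenular, tectal, microglia, endothelial, blood or pituitary genes tested was called.

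**Figure D3:**
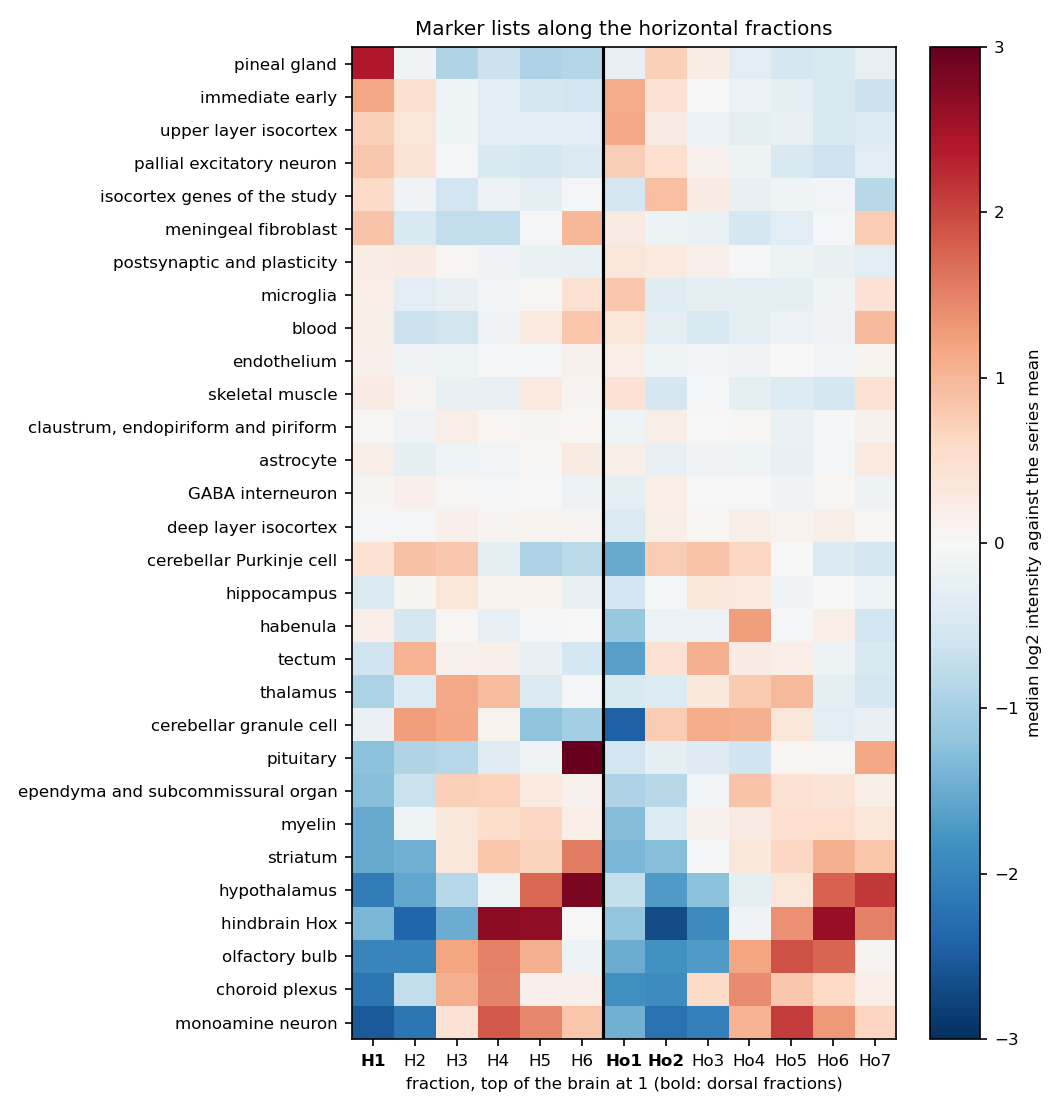
Median level of each of 30 gene lists in the 13 horizontal fractions, as log2 difference from the mean of the same series (red higher, blue lower), lists sorted by the mean of the dorsal fractions. Immediate early and upper layer genes are high in H1 and Ho1, myelin, striatal and choroid plexus genes are low in all 3 dorsal fractions, and pineal genes are high in H1.

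Pineal genes were uneven among the dorsal fractions. Tph1, which makes serotonin in the pineal gland, was at 1.75 in H1, -5.85 in Ho1 and -1.64 in Ho2 and at -5.13 to -2.65 elsewhere. H1 was the highest of the 13 fractions and Ho1 the lowest. Gnb3, a G protein subunit of photoreceptors and pinealocytes, was at 1.18, -6.70 and -2.81. Crx, the homeobox factor of the same cells, was at -2.97, -8.85 and -6.64 and was not well above background on any of the other 10 arrays. Sag, the arrestin of photoreceptors and pinealocytes, was at -0.73, -1.83 and -2.72 against at most -3.14 and was 3.77-fold higher (adjusted p = 0.00769), a log2 difference of 1.91 that was 1.24 without H1 (adjusted p = 0.0717). Unlike Tph1, Gnb3 and Crx, Sag was higher in Ho1 than in Ho2, so its levels over the dorsal fractions did not follow theirs. In the coronal and sagittal series, Sag ranged from -6.91 in C3 to -1.92 in So1. Of 8 pineal genes tested, 3 were higher, beside 8.64% of all genes. The median of the 8 was 1.53, from 2.88 in the H mouse and 0.50 in the Ho mouse, which is also the value without H1. All 8 were higher in H1 than in H2. Without Ho1, 4 were called, Tph1 among them (4.45, adjusted p = 0.034).

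The test of whether the dorsal difference differed between the series called 45 of 32172 probes (0.14%), of which 42 had a smaller or more negative dorsal difference in the Ho mouse than in the H mouse. H1 is the only dorsal array of the H mouse, so the mouse, the cutting plane and this 1 array cannot be told apart. They include 13 named genes. Among these were Dbx1, a homeobox factor of neural development, at -4.44 in H1 and at -8.72 or below on every other array, and Cngb1, a cyclic nucleotide channel subunit of rods, at 0.01 in H1 and at -5.18 and -4.07 in Ho1 and Ho2 (adjusted p of the difference = 0.000293), and Cngb3, the cone subunit. Cabp5, a calcium-binding protein of the retina, Lrit2, a retinal membrane protein, and Lhx4, a factor of pineal development, were also called. The remaining 7 were Rbmy, Adam29, Mogat1, Gimap3, Mesp1, Gzmm and Fabp12. For each of the 13 genes H1 was the highest of the 13 fractions. Dbx1, Rbmy, Adam29, Gimap3, Lrit2 and Cabp5 were at -7.88 or below on every array but H1. Such values lie near background, and these genes may have entered the test only through H1. Their calls set 1 array against values near background and are no measure of strength. The 45 probes include them.

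The RefSeq windows of 6 pineal genes were read for TAATCC, the core recognised by CRX and OTX factors, on both strands. Of these, 2 held it, as did 7.16% of the 27018 windows. The windows are shown because Crx and Sag are the pineal genes that hold it, with the core or its reverse complement in capitals, Crx at chr7:15879906-15880205 on the minus strand and Sag at chr1:87803430-87803729 on the plus strand.
Crx: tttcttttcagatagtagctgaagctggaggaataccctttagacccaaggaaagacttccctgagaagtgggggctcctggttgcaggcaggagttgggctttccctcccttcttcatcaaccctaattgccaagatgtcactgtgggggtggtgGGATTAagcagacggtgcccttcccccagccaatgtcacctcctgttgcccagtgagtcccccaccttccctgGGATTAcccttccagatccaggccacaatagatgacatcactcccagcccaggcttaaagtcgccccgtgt
Sag: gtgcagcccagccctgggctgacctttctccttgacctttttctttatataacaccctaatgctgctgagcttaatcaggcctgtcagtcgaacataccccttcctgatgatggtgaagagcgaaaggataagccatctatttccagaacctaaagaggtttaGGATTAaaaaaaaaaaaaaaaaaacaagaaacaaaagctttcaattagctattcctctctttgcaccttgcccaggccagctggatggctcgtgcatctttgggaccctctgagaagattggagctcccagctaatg

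Genes of the brain surface were shared between top and base. Meningeal fibroblast genes had a median difference of 0.46 in the dorsal fractions, or 0.18 without H1, with 0 of 14 called by limma. Their mean level was 2.29 in H1, 1.43 in Ho1 and 1.14 in Ho2, against 1.10 in H2, and it was 2.46 in H6 and 1.94 in Ho7. Slc22a6, an organic anion transporter of the meninges, was at 1.94 in H1 and 1.42 in Ho1, at 2.36 in H6 and 1.55 in Ho7, and at 0.77 or less in the fractions between. With the first and last fraction of each series set against the other 9, a comparison added after these values were seen, 2073 genes were higher (14.4%), among them 12 of the 14 meningeal genes, all 9 microglia genes, 3 of 3 blood genes, 8 of 10 endothelial genes and 6 of 11 astrocyte genes. These counts describe the pattern for which the comparison was chosen and are no independent test of it. Microglia genes were highest in Ho1. Aif1, a calcium-binding protein of microglia, was at 2.05 there, against 0.87 in H1 and 0.48 in Ho2, and all 9 were higher in Ho1 than in H1.

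**Figure D4:**
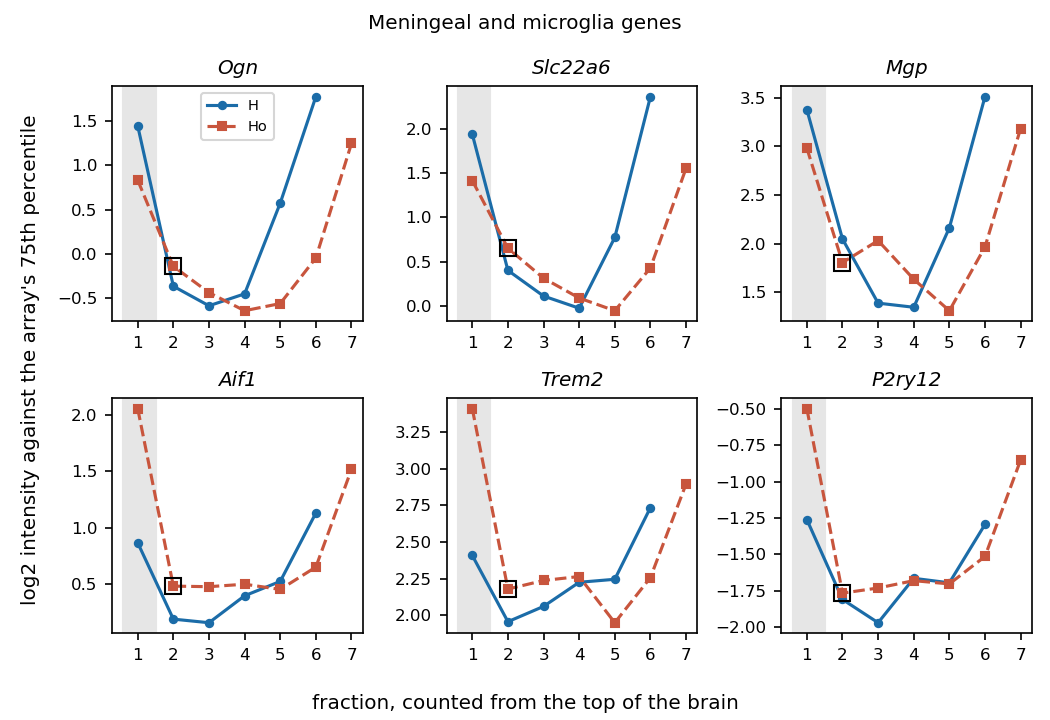
Levels (log2 intensity against the 75th percentile of the array) of 3 meningeal genes (Ogn, Slc22a6, Mgp) and 3 microglia genes (Aif1, Trem2, P2ry12) by fraction number from the top, in the H series (circles) and the Ho series (squares); the grey band marks fraction 1 and the open square Ho2. Each gene is high at both ends of the series and lower between them, and the microglia genes are highest in Ho1.

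Against only the next fractions below (H2 and Ho3), 0 of 32176 probes were called by limma (0%), with 2 residual degrees of freedom, too few for this count to say that the fractions did not differ. At an unadjusted p under 0.05 there were 2899 probes, and the smallest adjusted p was 0.354. Across all probes Ho2 was closest to Ho3, with r = 0.992, ahead of H2 with 0.991 and H1 with 0.988. Ho1 was closest to H1, with 0.985. These correlations run across probes, which are not independent replicates.

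The genes called in the dorsal fractions also varied along the other axes. Over the coronal and sagittal series of 4 other mice, the 1247 higher genes were above their series mean in the outer sagittal fractions, with a median of 0.31 in S2 and 0.30 in S10, and below it in the middle, with -0.21 in S7. The 9 fractions of the S series are numbered from S2 to S10 as in their labels. In the So series they were at 0.45 in So1, -0.23 in So6 and 0.05 in So10. The 1401 lower genes ran the other way, with -0.48 in S2, 0.30 in S6 and -0.37 in S10. Along the coronal C series, the higher genes ranged from -0.34 in C1 to 0.39 in C11. Immediate early genes were at -1.56 in C1 and rose from -1.49 in C4 to 0.53 in C5. These profiles describe the arrays, with 1 mouse per series.

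**Figure D5:**
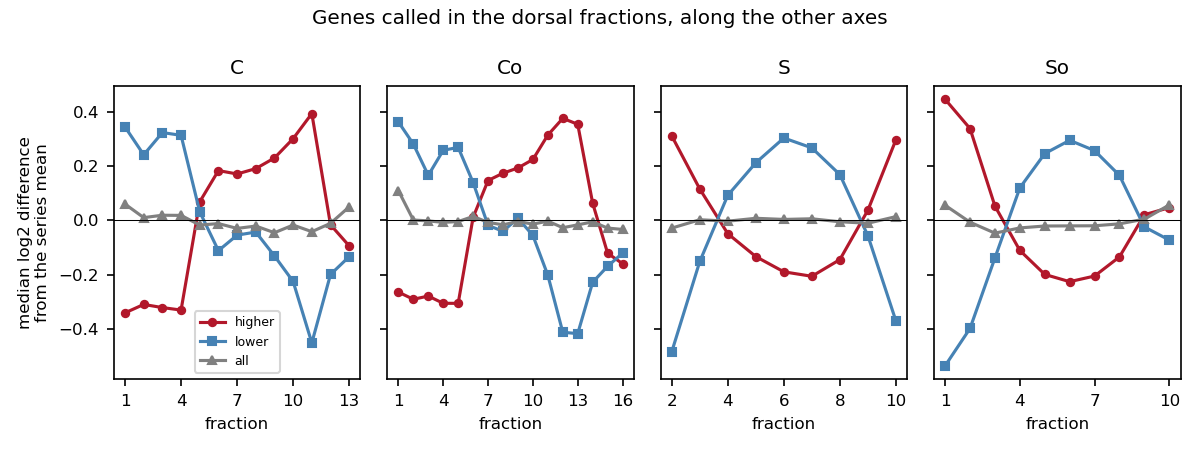
Median log2 difference from the series mean, by fraction, of the 1247 genes higher (circles), the 1401 genes lower (squares) and all 14441 genes (triangles) in the coronal (C, Co) and sagittal (S, So) series. The higher genes peak in S2, S10, So1, C11 and Co12, where the lower genes are low.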

How the data were processed

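Total RNA of 61 brain fractions was hybridised to single-colour Agilent arrays, 1 per fraction. The authors deposited the background-subtracted intensity of each spot from Agilent Feature Extraction 9.1, not normalized between arrays, and a second table of intensities normalized per array in GeneSpring GX. Of the columns of that table, 0 were left unused. Samples were grouped by their labels.

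Here, spots flagged as outliers were dropped, the log2 intensities of repeated spots were averaged, giving 41174 probes, and the 75th percentile of each array was subtracted. Probes well above background on at least 1 of 13 horizontal arrays were tested with limma 3.58.1 in R 4.3.3 (lmFit, eBayes; series and dorsal term; Benjamini-Hochberg over all probes). RefSeq accessions named 22951 probes, for 16358 genes, and each gene is represented by its probe of highest mean level. The 12 largest differences in each direction without overlap between groups were named (called, and well above background on every array of the higher group), and up to 4 called members per direction of each of 30 lists, and others where a list is described. A bound against dim arrays used, per array, the higher of the probe's signal and the lowest well-detected signal. The members and lists were chosen with earlier results of these data known. The fits were tested on simulated data. The number of arrays limits the precision. Alternatives covered scaling, the authors' table, background correction, filters, blocks, thresholds and left-out arrays.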

Additional observations from a re-analysis of the deposited data

Results flagged for a closer look

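In 9 of the 89 values checked over the 10 other horizontal fractions, 1 fraction lay far from the rest. Chance gives about 1 in 20 for independent values, a rate that does not apply as such to genes named for their dorsal difference. In all 9 this was H2, the fraction next to H1. It was the highest for Rspo1 (2.66) and Lamp5 (3.25), and the lowest for Ankk1 (-4.23), Drd2 (-2.04), Penk (4.04), Clic6 (-0.0859) and Gbx2 (-8.94), a thalamic factor. It was also the lowest for Tekt1, a ciliary protein of ependyma (-1.03), and for Aspa, the aspartoacylase of oligodendrocytes (0.53). For each of these genes H2 thus lay on the side of the dorsal fractions.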

How the results depend on the processing

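The 2466 higher and 3156 lower probes moved with the arrays used, the scaling and the blocks. Leaving out 1 array gave 4 to 3154 higher and 6 to 3730 lower probes, the lowest without H1 and the next lowest without Ho1 (566 and 1031). The H series alone gave 53 and 12, the Ho series alone 4 and 28, and slide as a fixed block 2 and 7, with fewer contrasts within blocks by construction. Without the replicate block for the series, 2166 and 2806 were called, and the shared fraction numbers do not pair the mice. Scaling to the median gave 6590 higher and 2226 lower, and the table normalized by the authors 6129 and 2077. Normexp with quantile normalization left 1706 lower. A straight line over depth gave 3964 higher, and an adjusted p under 0.01 gave 474 and 718. The difference between the series held 43 to 66 probes under 3 other normalizations. The comparison with the next fractions was too small to judge. Of 87 named genes, 0 changed direction under an alternative that had a value for them. The filter for all 13 arrays covered 74 of the genes and the check of other probes 26. Single other probes could still differ in sign, as 1 of Mbp did. The fixed slide block left 2 called, no H1 left 1 and no Ho1 left 43. No moderation, a random slide block, normexp and the straight line left 70 to 78. The causes were not tested.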
